A study of Mus musculus with 288 samples.

Results

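The genes of the proteasome subunits were examined, which are the genes whose symbol is Psm followed by a letter from a to f and a number. This rule found 45 of the 35904 genes in each expression table, and it used no measured value. RNA came from 6 tissues of male C57BL/6J mice with no engineered allele, aged 8 weeks, namely cerebellum, heart, kidney, liver, lung and muscle. One group was kept in normoxia and the other was exposed to intermittent hypoxia (IH) for 7 days. Oxygen cycled between 21% and 8% during the light, inactive phase, and all mice had normoxia in the dark, active phase. Both groups were then held in constant normoxic darkness for 2 days, and tissues were collected on the second of these days every 3 h, at 8 time points with 3 replicates each. Each tissue and treatment therefore had 24 libraries and the series had 288. Libraries taken from different tissues of 1 mouse cannot be recognised from the labels, and p-values measure the spread between these samples.

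The proteasome degrades proteins tagged with ubiquitin. Its core particle, the 20S, is a stack of rings of alpha and beta subunits, in which Psmb5, Psmb6 and Psmb7 carry the proteolytic sites. Psmb8, Psmb9 and Psmb10 take their places in the immunoproteasome, which is abundant in immune cells and is induced by interferon gamma. The regulatory particle, the 19S, caps the core and holds 6 ATPases (Psmc1 to Psmc6) that unfold substrates, and non-ATPase subunits that bind and remove ubiquitin. Psme1 and Psme2 form the 11S activator, Psme3 and Psme4 encode other activators of the core, and Psmf1 encodes an inhibitor. When proteasome activity falls, the transcription factor NRF1, encoded by Nfe2l1, raises the expression of subunit genes through antioxidant response elements.

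The DNA just upstream of 5 of these genes is printed below, as read from RefSeq (GRCm38.p6). Psmd2, Psmb10 and Psmb3 are shown because they had the largest falls in the lung after IH among the members, Psmb5 because it is a catalytic subunit with an antioxidant response element core, and Psmc6 because its lung change did not pass the test. Each runs 5′ to 3′ on the strand of its gene up to the base before the annotated gene start. Capitals mark the antioxidant response element core TGACNNNGC and the ETS site CCGGAAG on either strand. The regions are chr16:20651402-20651651 on the plus strand for Psmd2, chr8:105938445-105938642 on the minus strand for Psmb10, chr11:97703184-97703398 on the plus strand for Psmb3, chr14:54618023-54618245 on the minus strand for Psmb5 and chr14:45329574-45329787 on the plus strand for Psmc6.
Psmd2: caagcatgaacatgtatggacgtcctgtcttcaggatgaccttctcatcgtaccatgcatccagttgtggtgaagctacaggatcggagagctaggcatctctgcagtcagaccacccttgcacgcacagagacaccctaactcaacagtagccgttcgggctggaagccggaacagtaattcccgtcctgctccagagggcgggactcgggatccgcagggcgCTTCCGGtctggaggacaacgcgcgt
Psmb10: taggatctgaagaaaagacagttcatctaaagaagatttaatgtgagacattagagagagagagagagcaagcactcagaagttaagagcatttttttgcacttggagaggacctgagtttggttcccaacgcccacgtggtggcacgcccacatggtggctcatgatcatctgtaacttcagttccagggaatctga
Psmb3: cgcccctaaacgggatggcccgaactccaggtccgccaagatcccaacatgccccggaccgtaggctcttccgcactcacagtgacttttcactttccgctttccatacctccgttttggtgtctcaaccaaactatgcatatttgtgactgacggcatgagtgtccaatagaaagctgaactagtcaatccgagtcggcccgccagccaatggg
Psmb5: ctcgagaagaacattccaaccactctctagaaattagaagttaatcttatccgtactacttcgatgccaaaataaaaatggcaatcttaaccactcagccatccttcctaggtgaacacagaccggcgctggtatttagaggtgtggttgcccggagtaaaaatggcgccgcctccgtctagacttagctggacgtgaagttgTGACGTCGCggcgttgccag
Psmc6: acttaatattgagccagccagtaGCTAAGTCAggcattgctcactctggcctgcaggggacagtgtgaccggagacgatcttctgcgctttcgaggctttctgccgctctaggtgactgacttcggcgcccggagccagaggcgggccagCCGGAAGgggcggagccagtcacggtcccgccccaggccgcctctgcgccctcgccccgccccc

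RefSeq promoter entries were matched for 38 of the 45 members among 27025 genes, and 9 motifs were searched on both strands in the 250 bases before the start. The unmatched members were Psma8, Psmb1, Psmb2, Psmb7, Psmc3, Psmd3 and Psmd7. The ETS site CCGGAAG was found in 11 of the 38 members (Psma6, Psmc1, Psmc2, Psmc6, Psmd11, Psmd12, Psmd2, Psmd4, Psmd6, Psme3 and Psme4) and in 7.83% of all genes. The core TGACNNNGC was found in 5 members (Psmb5, Psmb6, Psmc6, Psmd12 and Psmd9) and in 11.5% of all genes. Its longer form TGACTCAGC, which overlaps the core, was in 0 members and 0.426% of genes. The GC box GGGCGG was in 21 members and 35.4% of genes, and the CCAAT box, CCAAT, was in 14 members and 37.5% of genes. The interferon response element core (GAAA, NN, GAAA) was in 3 members (3.46% of genes), the E-box CACGTG in 4 (6.86%), the hypoxia response element core ACGTG, which lies within the E-box, in 8 (18.5%) and the TATA box TATAAA in 4 (14.3%). A match describes these letters in this window and not a bound site.

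Expression was given as TPM (the number of transcripts of a gene in a fixed total), which corrects for transcript length, and the tables hold no counts, so the sequencing depth of each library is unknown. Libraries summed to between 989211 and 999188 TPM. Of these, 10 libraries had a median correlation under 0.96 with the others of their tissue, namely 6 of the cerebellum, 2 of the heart and 1 each of the liver and the lung, and values without them stand beside the results that rest on them. In bulk tissue, fewer cells of a type and less RNA per cell cannot be told apart. For the comparisons, TPM was scaled between libraries by the median of ratios, and log2(scaled TPM + 0.5) was tested with limma where a gene averaged 1 TPM or more. Adjusted p-values are Benjamini-Hochberg values over all genes tested, and a fold change on this scale understates the change of low genes.

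In normoxia the constitutive catalytic subunits were abundant in every tissue, whereas the means of Psmb8 and Psmb9 spanned a wider range. Psmb5 had a mean TPM of 248 ± 37.9 in the kidney, 218 ± 56.1 in the cerebellum, 179 ± 18.8 in muscle, 158 ± 12.3 in the liver, 124 ± 6.39 in the lung and 120 ± 22.6 in the heart (SD, n = 24 each). The lung and the heart, and the kidney and the cerebellum, lay within each other's SD. Psmb8, its immunoproteasome form, had a mean TPM of 113 ± 18.7 in the lung, 46.9 ± 49.9 in the heart, 38.4 ± 9.62 in muscle, 32.1 ± 4.61 in the liver, 17.3 ± 2.85 in the kidney and 7.52 ± 1.88 in the cerebellum (SD, n = 24 each). The lung was highest, above all but the heart by more than the SDs, and the heart, muscle and liver did not differ beyond their spread. Psmb9 ran from 61.4 ± 10.8 in the lung to 5.20 ± 2.64 in the cerebellum, with 18.6 ± 15.3 in the heart and 6.40 ± 1.16 in the kidney. Psmb10 had another order, being highest in the cerebellum at 153 ± 60.4, then 115 ± 18.6 in the lung, 71.8 ± 25.4 in the heart, 47.6 ± 7.14 in the liver, 41.5 ± 5.96 in muscle and 21.9 ± 3.38 in the kidney. The cerebellum thus held much Psmb10 mRNA beside little Psmb8 and Psmb9. The plot of catalytic subunits by tissue shows each library.

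**Figure D1:**
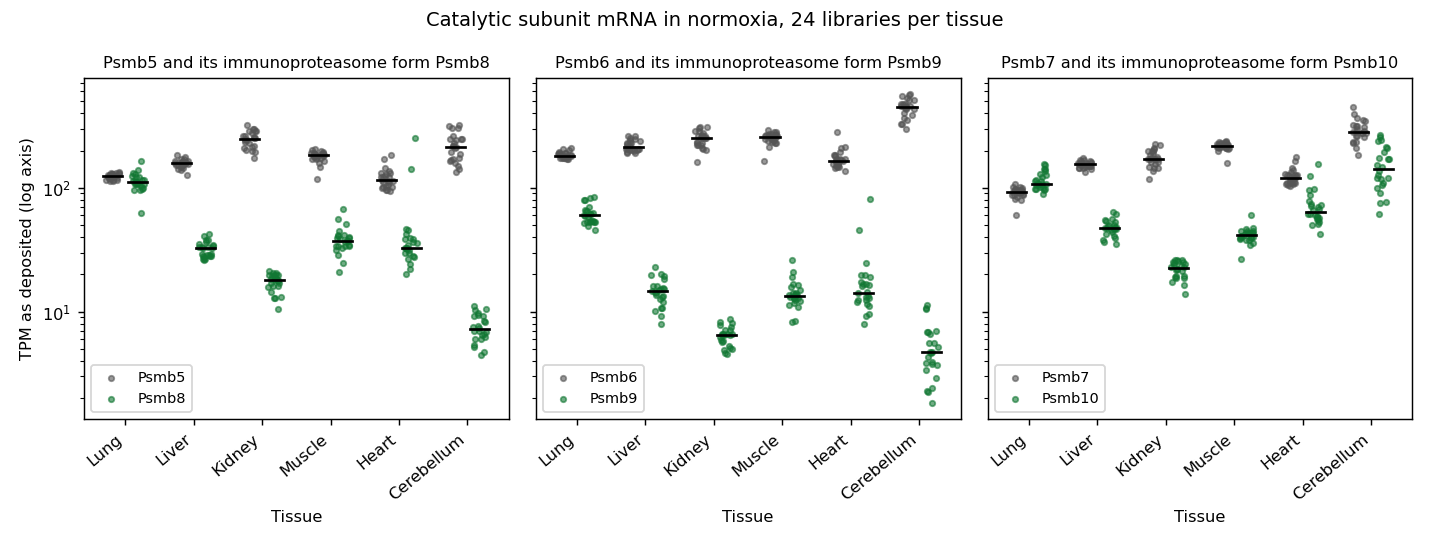
Levels of the 3 constitutive catalytic subunits (grey) and their immunoproteasome forms (green) in normoxia, as deposited TPM on a log axis, by tissue. Each point is 1 of 24 libraries and black lines are medians. Psmb8 reached a mean of 113 TPM in the lung and 7.52 TPM in the cerebellum, where Psmb10 reached 153 TPM.

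Psmb8 ran from 20.1 to 254 TPM in the 24 heart libraries of normoxia, with a median of 32.7. Its value of 254 was in replicate 3 at 7:30, and replicate 3 at 19:30 had 143. The summed TPM of 14 leukocyte markers was 1054 and 743 in these same 2 libraries, against a median of 40.2 in the group. The 6 lung markers summed to 1567 and 374 TPM in them, against a median of 1.06. The highest sum of the lung markers in the group, 2011 TPM, was in another library. The 2 libraries with high leukocyte markers also held Psmb11, the catalytic subunit of the thymus proteasome, at 17.1 and 9.32 TPM, against a median of 0.074 in the group. Their part in the heart levels was not tested.

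Psmb11 and Psma8, an alpha subunit of the testis proteasome, were the members with the lowest levels. The median of Psmb11 in normoxia was between 0.028 TPM in the kidney and 0.318 TPM in the cerebellum. The median of Psma8 was between 0.144 TPM in muscle and 0.896 TPM in the cerebellum, where 1 library reached 18.8. After filtering, 43 members were tested in the lung, kidney, muscle and heart, 42 in the liver and 44 in the cerebellum.

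Each tissue in normoxia was compared with the mean of the other 5 tissues, with 43 members tested, and a call needed both an adjusted p of 0.05 and a difference of 1.5 times. In the lung 35 members were lower and 3 higher, against 31.6% of all genes lower and 25.4% higher. In the liver 28 were higher and 1 lower (25.4% and 35.4% of genes). The counts of higher and lower members were 4 and 4 in the kidney (23.1% and 29.7% of genes), 5 and 1 in muscle (20.6% and 27.5%), 6 and 3 in the heart (18.7% and 24.2%) and 8 and 7 in the cerebellum (28.7% and 35%). These counts depended on the scaling between tissues. On deposited TPM the lung had 1 member lower and 7 higher, where 2458 of 15492 genes were lower and 8581 higher. The liver had 6 lower and 0 higher (9618 and 1837 genes). The heart had 26 lower and 0 higher (7657 and 1544 genes), and the cerebellum 5 lower and 30 higher (3779 and 6692 genes).

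Set against all genes, the members kept their position in the lung and the liver on both scales. In the lung the median member minus the median gene was -0.84 on the log2 scale when scaled and -0.76 as deposited, and in the liver it was 0.77 and 0.63. It was 0.36 and 0.43 in the cerebellum, 0.21 and 0.21 in muscle, 0.14 and 0.16 in the kidney, and -0.06 and -0.11 in the heart.

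The members that stood out differed by tissue, as log2 differences of scaled values. In the lung the highest were Psme2b (2.45), Psmb9 (1.63) and Psmb8 (1.36), and the lowest were Psmb7 (-1.92), Psmd6 (-1.49) and Psmb5 (-1.43), so that both immunoproteasome subunits stood opposite to constitutive catalytic ones. In the cerebellum Psmb8 (-2.83), Psmb9 (-2.20) and Psme4 (-1.82) were lowest, with the ATPase Psmc5 at 1.36, the deubiquitinase Psmd14 at 1.05 and Psmb10 at 0.93. The kidney was low in Psmb10 (-1.82), Psme2b (-1.43) and Psmb9 (-1.32) and high in the 19S assembly chaperones Psmd5 (1.02) and Psmd10 (0.87) and in Psma4 (0.76). Muscle was high in Psme4 (1.26), Psmd6 (0.84) and Psmd8 (0.72) and low in Psmd5 (-0.76), Psmd10 (-0.55) and Psme1 (-0.51). In the heart Psme2b (0.95), Psmb8 (0.93) and Psme4 (0.84) were high, and Psmd5 (-1.14), Psmd9 (-0.68) and Psmc4 (-0.59) low. The liver was highest in Psmd11 (1.40), Psmd9 (1.33) and Psme1 (1.27) and lowest in Psme2b (-1.05).

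Psme2b is a near copy of Psme2 without introns, so reads of the gene pair may have been shared and its values are uncertain. Psme2b had a mean of 27.3 ± 5.96 TPM in the lung and between 1.04 and 4.87 TPM in the other tissues, whereas Psme2 had 170 ± 16.6 TPM in the lung (SD, n = 24 each). Psmb8 and Psmb9 lie within a short stretch of chromosome 17 (34197721 to 34201454 on the plus strand and 34181987 to 34187764 on the minus strand, GRCm38), and Psme1 and Psme2 lie close together on chromosome 14 (55578123 to 55581529 and 55587441 to 55591113).

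On scaled TPM, IH exposure was followed by lower mean 24-hour expression of nearly all proteasome genes in the lung. Of the 43 members tested, 42 passed an adjusted p of 0.05, against 70.4% of all genes. The direction was lower for 41 members, against 41.5% of all genes, and higher for Psme4 alone (28.9% of genes), while Psmc6 did not pass. The median member change was -0.45 on the log2 scale and the median over all genes was -0.08, a difference of -0.37. The 5 members Psmd2, Psmb10, Psmb3, Psmb2 and Psme1 fell by more than 1.5-fold, against 4.39% of all genes. Without replicates 1, 2 and 3 in turn 15, 3 and 8 members did (866 of 15382, 383 of 15278 and 1472 of 15590 genes).

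The scaling changed the size of these falls and the direction of some members, while the median member stayed below the median gene. Of the 43 members, 2 had a positive change when scaled and 9 as deposited. On deposited TPM the median member change was -0.15 and that of all genes 0.21, a difference of -0.35. On that scale 28 members passed, 26 lower and 2 higher, and 0 passed 1.5-fold. Of 15426 genes, 10133 then passed, 1655 lower and 8478 higher, and 2966 passed 1.5-fold, 58 of them lower. A term for the number of genes detected, which rose from 22694 on average in normoxia to 25455 after IH, gave a difference of -0.33, with 35 members lower and 1 higher. Under that term 3868 of 15426 genes were lower and 4234 higher. Without the IH library of 1:30, replicate 2, whose lung marker sum was the lowest at 34982 TPM, 42 members passed and 41 were lower, but 3 rather than 5 passed 1.5-fold. Of 15328 genes, 10606 then passed, 6291 of them lower, and 496 were lower past 1.5-fold.

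On scaled TPM, the lower lung levels were seen at all times of day. The time-point mean of scaled TPM was lower after IH at all 8 time points for 41 of the 43 members. It was higher at all 8 for Psme4. The same count was not made over all genes. Expressed as the median member of each library relative to the normoxia mean, scaled normoxia libraries lay between -0.14 and 0.17 on the log2 scale. Scaled IH libraries lay between -0.92 and -0.28, so the groups did not overlap. As deposited the groups overlapped, at -0.17 to 0.12 in normoxia and -0.34 to 0.04 after IH. Every IH library lay below every normoxia library for 18 members, against 1.63% of genes, and with TPM as deposited for 0 members and 0% of genes.

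**Figure D2:**
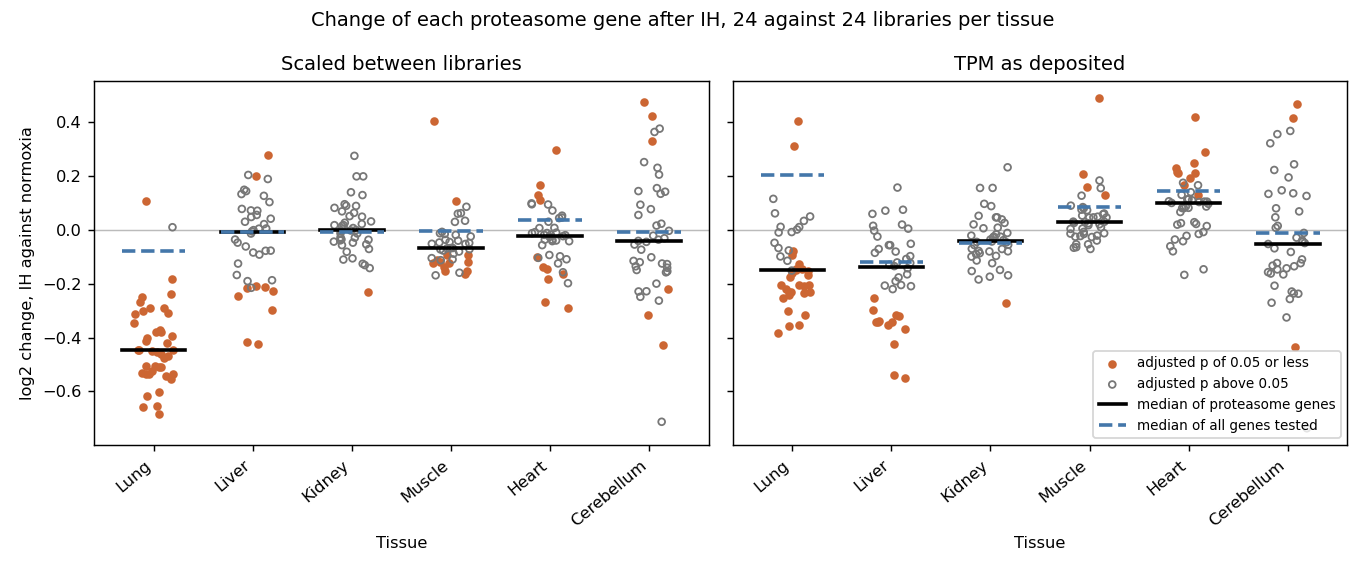
Log2 change of each proteasome gene after IH against normoxia by tissue, with TPM scaled between libraries (left) and as deposited (right). Filled points passed an adjusted p of 0.05, open points did not, and lines give the medians of the proteasome genes and of all genes tested. In the lung the members' median was -0.45 against -0.08 when scaled, and -0.15 against 0.21 as deposited.

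In the core particle of the lung all 7 alpha, all 4 structural beta and all 3 constitutive catalytic subunits fell, with median changes of -0.47, -0.58 and -0.51. Psmb3, a structural beta subunit, ran from 150 to 205 scaled TPM in normoxia with a median of 173, and from 55.4 to 134 after IH with a median of 117. The groups did not overlap, and the change was -0.66 ± 0.06 (log2, SE, limma adjusted p = 2.5e-12). Psmb5, with chymotrypsin-like activity, ran from 117 to 178 with a median of 135 in normoxia and from 46.1 to 116 with a median of 99.0 after IH, a change of -0.54 ± 0.07 (limma adjusted p = 8.7e-10). Psma1 of the alpha ring went from a median of 108 (94.9 to 134) to 76.0 (57.9 to 89.8), a change of -0.52. Again neither gene's groups overlapped. Psmb6, with caspase-like activity, had a median of 202 (177 to 244) in normoxia and 148 (91.3 to 179) after IH, a change of -0.45 in which the groups overlapped at their edges. Psmb7, with trypsin-like activity, changed by -0.51.

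The immunoproteasome subunits of the lung fell to a like extent, 3 of 3 with a median change of -0.53. Psmb10 ran from 101.8 to 195 scaled TPM in normoxia with a median of 120, and from 59.2 to 94.4 after IH with a median of 80.3. The groups did not overlap, and the change was -0.66 ± 0.06 (log2, SE, limma adjusted p = 4.4e-12). Psmb8 had a median of 121 (85.6 to 166) in normoxia and 88.2 (55.2 to 111) after IH, a change of -0.51, and Psmb9 a median of 66.2 (50.0 to 93.2) and 48.8 (29.1 to 60.7), a change of -0.53. Both overlapped between the groups.

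In the regulatory particle 5 of 6 ATPases, all 3 non-ATPases of the base, all 8 lid subunits and all 3 assembly chaperones fell, with median changes of -0.45, -0.54, -0.30 and -0.41. Psmd2, which docks ubiquitin receptors in the base, ran from 82.0 to 202 scaled TPM in normoxia with a median of 93.1, and from 36.8 to 80.0 after IH with a median of 68.7. It was the member with the largest fall, -0.68 ± 0.09 (log2, SE, limma adjusted p = 5.7e-09), and its groups did not overlap. Psmd1, its partner in the base, changed by -0.54, and Psmd13 of the lid by -0.53. The ATPase Psmc6 was the exception, with a median of 58.8 (52.4 to 66.9) in normoxia and 59.4 (48.8 to 76.8) after IH. Its change was 0.01 with a 95% confidence interval of -0.09 to 0.11 (limma adjusted p = 0.855). As deposited, the TPM of Psmc6 was 0.31 higher on the log2 scale, and with the term for genes detected its change was -0.19 (limma adjusted p = 0.011). The libraries of different replicate numbers moved apart. Those numbered 3 lay between 57.9 and 66.9 scaled TPM in normoxia and between 48.8 and 54.1 after IH, a change of -0.28 in these libraries alone, whereas those numbered 1 changed by 0.21. Without replicate 3 the change of Psmc6 was 0.15 (limma adjusted p = 0.0088).

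Among the activators, Psme1 fell from a median of 207 (187 to 247) to 143 (89.3 to 170) scaled TPM, a change of -0.60 ± 0.05 (log2, SE) with no overlap of the groups. Its partner Psme2 changed by -0.30 (limma adjusted p = 2.6e-04), but its change was 0.00 with TPM as deposited. Psme2b changed by -0.18 (limma adjusted p = 0.040) and Psme3, the nuclear activator, by -0.25, though Psme3 was 0.05 higher as deposited. Psme4, an activator of ubiquitin-independent degradation, had a median of 19.7 (16.49 to 21.2) in normoxia and 21.0 (19.2 to 25.4) after IH. It rose by 0.11 ± 0.03 (limma adjusted p = 0.0015), with overlapping groups, but did not pass without replicate 2 (0.065, limma adjusted p = 0.068) or without replicate 3 (0.086, limma adjusted p = 0.060). The inhibitor Psmf1 ran from 17.3 to 24.4 in normoxia and from 10.1 to 22.3 after IH, a change of -0.45, which did not hold with the term for genes detected (0.13, limma adjusted p = 0.119).

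**Figure D3:**
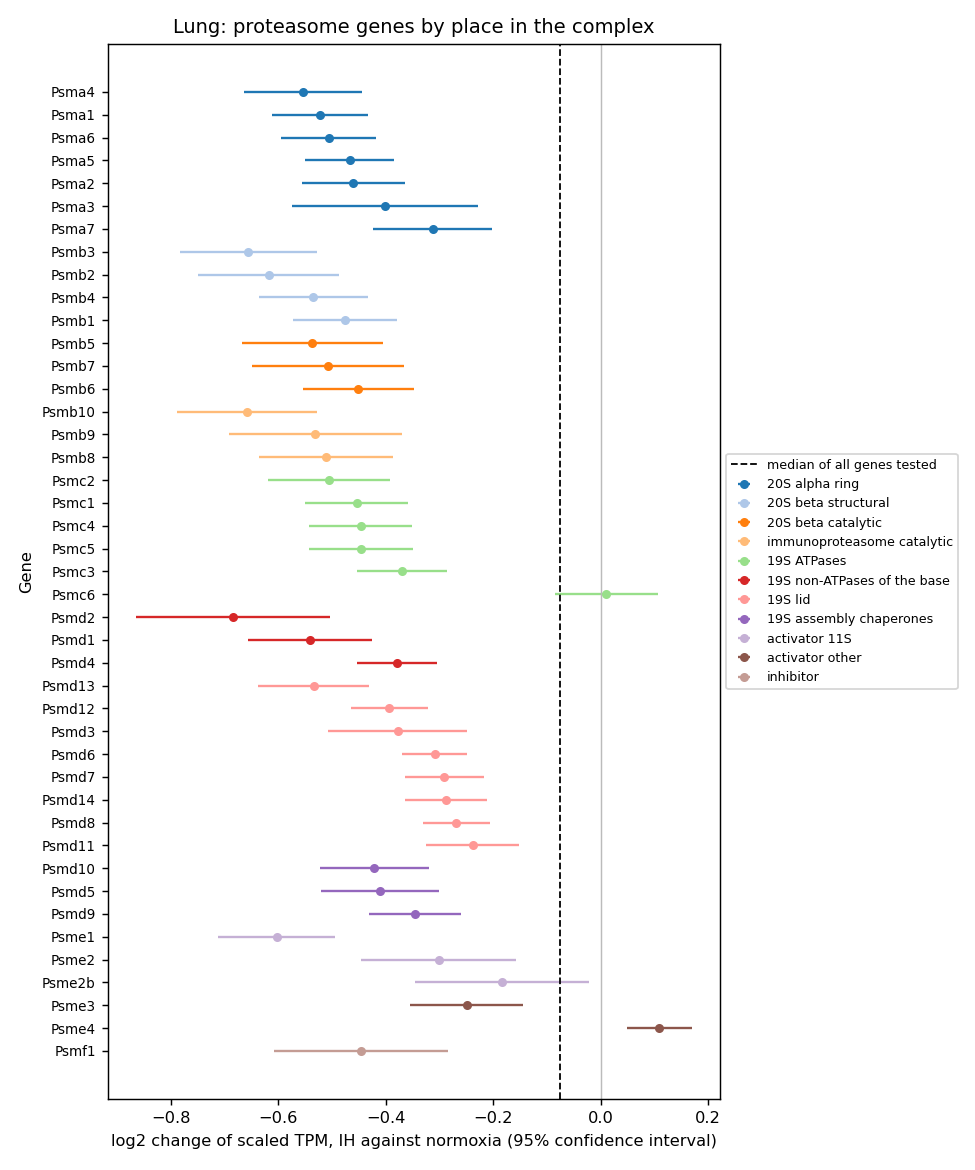
Log2 change of scaled TPM after IH against normoxia in the lung for each of the 43 members tested, grouped by place in the complex. Points are limma estimates with 95% confidence intervals from 24 libraries per group, and the dashed line is the median of all genes, -0.08. Psmd2 lay lowest at -0.68, Psmc6 lay at 0.01 and Psme4 at 0.11.

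**Figure D4:**
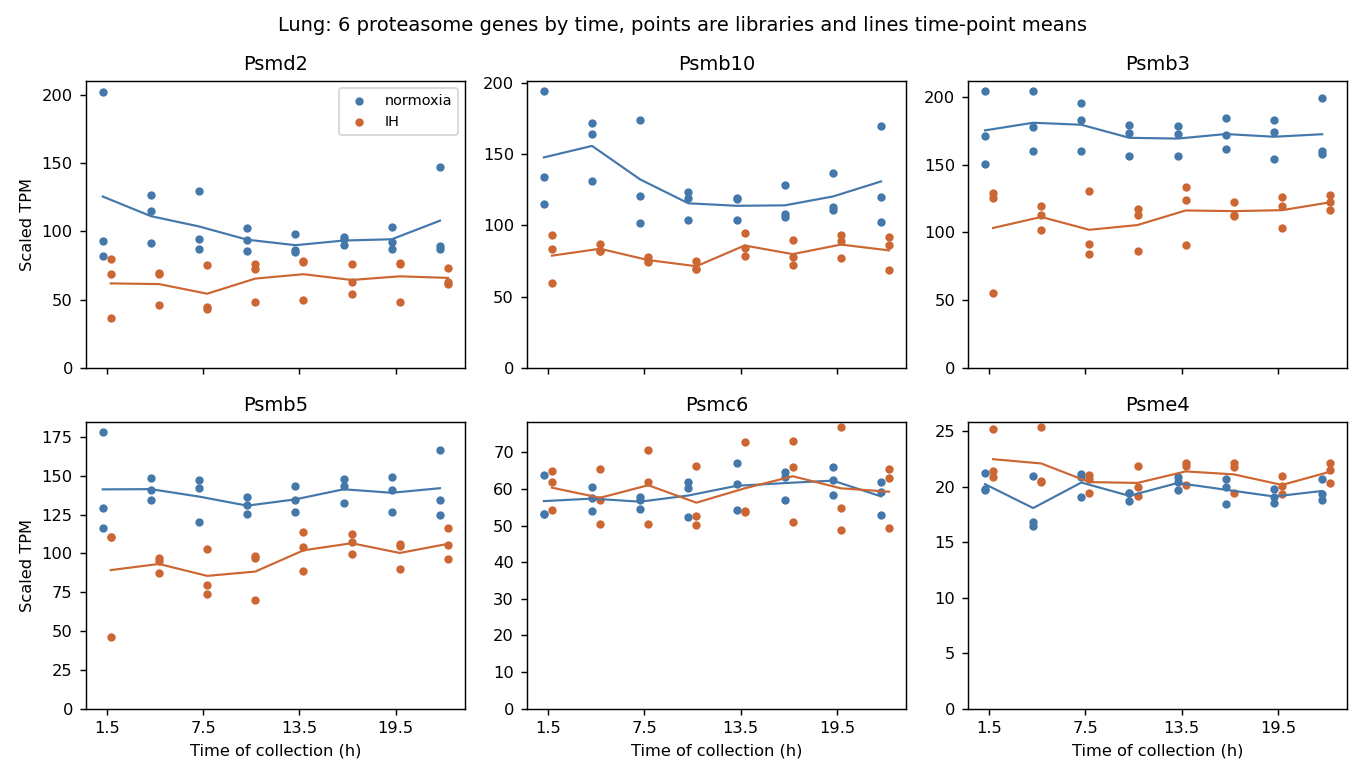
Scaled TPM of 6 proteasome genes in the lung by time of collection in hours, with 3 libraries per time point and treatment as points and time-point means as lines. Psmd2, Psmb10, Psmb3 and Psmb5 lay lower after IH at all 8 time points, Psme4 lay higher at all 8, and Psmc6 lay lower at 3 of 8.

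The balance of core and cap was described as a ratio. The summed TPM of the 14 constitutive core genes divided by that of the 17 genes of the 19S had a median of 1.35 in normoxia (1.28 to 1.49) and 1.25 after IH (1.13 to 1.44) in the lung, with overlapping ranges and no test. All members together made up a median of 0.374% of the TPM of a lung library in normoxia and 0.339% after IH, with overlapping ranges.

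Genes that act with the proteasome were counted from lists of their known members in the lung, where 41.5% of all genes fell and 28.9% rose. Of 9 assembly factors and 19S partners tested, 8 fell and 0 rose, with a median of -0.41. They include Pomp, the maturation factor of the core (-0.62), the chaperones Psmg1 to Psmg4 (-0.38, -0.34, -0.43 and -0.41) and Akirin2, which carries proteasomes into the nucleus (-0.50). As deposited, where 8478 of 15426 genes were higher and 1655 lower, 3 of these factors were lower and 1 higher. The list for the NRF1 pathway held 5 genes, among them Nfe2l2, which encodes the related factor NRF2 and not NRF1. Of these 5, Vcp, the segregase (-0.76), Nfe2l2 (-0.54) and the glycanase Ngly1 (-0.24) fell and the protease Ddi2 rose (0.26). Nfe2l1 itself changed by -0.15 (limma adjusted p = 0.051). On deposited TPM 2 of the 5 were lower and 2 higher. Of 9 genes for ubiquitin delivery and removal 4 fell, with Ubqln2 at -0.68, and 1 rose, and as deposited 2 were lower and 4 higher. Of 11 MHC class I and interferon genes 9 fell and 0 rose, with a median of -0.36 and the light chain B2m at -0.61, and as deposited 3 were lower and 2 higher.

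Marker genes of cell types moved in the same lung libraries, in which 41.5% of all genes fell and 28.9% rose. Lung epithelial markers fell in 6 of 6 cases with a median of -0.76, and their summed TPM was 136754 to 265125 in normoxia and 34982 to 206123 after IH. Leukocyte markers fell in 7 of 14 cases, a share near that of all genes, and rose in 0, with a median of -0.25 and Nkg7 at -0.90. The summed TPM of the leukocyte markers was 195 to 613 in normoxia (median 453) and 183 to 918 after IH (median 449). As deposited, 4 leukocyte markers were lower and 3 higher. Heart markers rose in 3 of 6 cases, from a summed TPM of 229 to 898 to one of 332 to 1066, and muscle markers rose in 2 of 5. In the lung groups, no marker of these lists was at 0 in every library. Their part in the change of the proteasome genes was not tested.

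In the other 5 tissues 0 members passed 1.5-fold with limma, against 3.66% of all genes in the liver, 0.783% in the kidney, 0.374% in muscle, 2.64% in the cerebellum and 2.95% in the heart. In the liver 10 of 42 members passed an adjusted p of 0.05 (24.2% of all genes), 8 lower (13.3%) and 2 higher (10.9%), with a median of -0.01 for the members and for all genes. Psmd2 had a median of 71.7 (54.7 to 98.1) scaled TPM in normoxia and 54.5 (32.2 to 73.2) after IH, a change of -0.42 ± 0.07 (log2, SE). Psmf1 changed by -0.42 and Psmd1 by -0.30, and the other members that fell were Psmd5, Psmd11, Psmd3, Psmd4 and Psmc5. As the share of members called was like that of all genes, these few calls do not set parts of the complex apart. Psmd10, an assembly chaperone, was 0.28 higher and Psmc6 was 0.20 higher. With TPM as deposited 13 members passed, all lower, where 2059 of 11334 genes were lower and 408 higher. Without replicates 1, 2 and 3 in turn 0, 1 and 12 members passed (110 of 11438, 239 of 11315 and 4637 of 11211 genes). The library of 13:30, replicate 2, in which heart markers summed to 6578 TPM, did not decide the count, which was 10 without it (3258 of 11243 genes). Markers of other tissues moved in the same comparison. In the liver, kidney markers rose past 1.5-fold in 3 of 3 cases tested with a median of 2.13 (log2), from a summed TPM of 0.78 to 112 in normoxia to one of 37.4 to 406 after IH. Heart markers rose past 1.5-fold in 6 of 6 cases with a median of 1.36, from 5.19 to 52.5 to between 22.6 and 6578 TPM. Liver markers fell in 1 of 6 cases, with sums of 70470 to 103821 TPM in normoxia and 1631 to 87018 after IH, and 7 of 11 MHC class I and interferon genes fell. Gabra6, a cerebellum marker, was at 0 in every liver library after IH. The part of these markers in the change of the liver members was not tested.

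In the kidney 1 of 43 members passed (19.8% of genes), the ATPase Psmc6, which was lower (11.5% of genes lower and 8.25% higher). An unadjusted p under 0.05 was seen for 8 members, against 4263 of 12902 genes. Psmc6 had a median of 69.0 (49.5 to 87.4) scaled TPM in normoxia and 57.9 (45.6 to 70.1) after IH, a change of -0.23 ± 0.05 (log2, SE). Without replicate 3 the change was -0.11 and did not pass (limma adjusted p = 0.266). The change of Psmc6 in the lung minus that in the kidney was 0.18 ± 0.07 (limma adjusted p = 0.023), but it did not pass without replicate 1 (0.16), without replicate 3 (0.16) or with the term for genes detected (0.057). With the term for genes detected 5 members of the kidney passed, 4 of them higher (3107 of 12902 genes passed, 1671 higher). Without replicates 1, 2 and 3 in turn 6, 3 and 2 members passed (2236 of 12878, 2531 of 12862 and 2004 of 12928 genes).

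In muscle 13 of 43 members passed (10.4% of genes), 11 lower (4.89%) and 2 higher (5.48%), with a member median of -0.07 against 0.00 for all genes. The changes were small. Psmd8 of the lid changed by -0.16, Psmd2 by -0.15, Psmd7 by -0.15, Psme4 by -0.14 and Psmb5 by -0.12, while Psmd11 was 0.11 higher and the uncertain Psme2b 0.41 higher at medians of 4.14 and 5.36 scaled TPM. With TPM as deposited the direction was the opposite, with 4 members past the threshold and all higher. On that scale 1865 of 12824 genes were higher and 81 lower. The member median was then 0.03 against 0.09 for all genes. Without replicates 1, 2 and 3 in turn 22, 1 and 7 members passed (1532 of 12853, 338 of 12838 and 1209 of 12805 genes).

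In the heart 11 of 43 members passed (45.2% of genes), 7 lower (17.3%) and 4 higher (28%), with a member median of -0.02 against 0.04 for all genes. Psme4 rose most, from a median of 30.1 (13.6 to 39.3) to 34.2 (23.4 to 47.8) scaled TPM, a change of 0.30 ± 0.09 (log2, SE). Psmd1 was 0.17 higher, Psmd11 0.13 and Psmd3 0.11, whereas the alpha subunits Psma3 and Psma5 changed by -0.29 and -0.18, Psmb10 by -0.27 and Psmb6 by -0.14. With TPM as deposited 10 members passed, all higher, where 4788 of 12779 genes were higher and 816 lower. The member median was then 0.10 against 0.15 for all genes. With the term for genes detected 1 member and 257 genes passed. Under that term the changes of Psmb6 (0.07), Psmb10 (0.10), Psme4 (-0.13), Psma3 (0.12) and Psma5 (0.09) took the opposite sign. The number of genes detected was 22988 to 28331 in normoxia and 20316 to 22793 after IH, without overlap. In the heart that term and the treatment can therefore hardly be told apart. Without replicate 1, 5 members passed, all higher (3072 of 12826 genes passed, 2027 higher). Without the 2 libraries with high leukocyte markers 12 passed, 6 in each direction (3945 genes higher and 2492 lower of 12591).

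In the cerebellum 6 of 44 members passed (15% of genes), 3 higher (9.76%) and 3 lower (5.24%), with a member median of -0.04 against -0.01 for all genes. The ATPase Psmc1 had a median of 205 (143 to 318) scaled TPM in normoxia and 299 (132 to 421) after IH, a change of 0.48 ± 0.11 (log2, SE). Psmb5 changed by 0.42, from a median of 204 (132 to 382) to 296 (118 to 451), and Psmd3 by 0.33. Psma3 changed by -0.43, Psma1 by -0.32 and Psme3 by -0.22. The groups overlapped for each of these genes. Without replicates 1, 2 and 3 in turn 1, 0 and 12 passed (175 of 14592, 48 of 14959 and 5289 of 15084 genes). Without the 6 libraries of low correlation 6 passed, 5 higher and 1 lower (1837 and 980 of 14458 genes).

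The change in the lung was tested against that in each other tissue as a difference of the changes, in a model that treats all libraries as independent samples. These tests share the lung libraries. It was lower in the lung for 39 of 42 members against the liver (56.2% of all genes differed in either direction), for 40 of 43 against the kidney (64.4%), 41 against muscle (58.9%), 36 against the cerebellum (53.4%) and 41 against the heart (67%). For Psmd2 the difference ranged from -0.36 with the liver to -1.13 with the cerebellum. On deposited TPM 7, 12, 26, 13 and 24 members differed in either direction, in the same order of tissues. Of all genes, 5572 of 10795, 7114 of 12214, 5582 of 12348, 5624 of 13178 and 6318 of 12445 did. The median differences of the members were then 0.012, -0.09, -0.20, -0.06 and -0.19, and those of all genes 0.31, 0.24, 0.10, 0.21 and 0.03.

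The balance of immunoproteasome and constitutive subunits was compared as the log2 ratio of the TPM of Psmb8 to Psmb5, Psmb9 to Psmb6 and Psmb10 to Psmb7, which does not depend on the scaling between libraries. The 18 ratios were tested by 2-sided permutation within time points and adjusted together, and 2 passed. In the lung the ratio of Psmb8 to Psmb5 had a median of 0.910 in normoxia and 0.914 after IH, with a log2 difference of 0.03 (permutation adjusted p = 0.735). The ratio of Psmb9 to Psmb6 differed by -0.08 (permutation adjusted p = 0.396) and that of Psmb10 to Psmb7 by -0.15 (permutation adjusted p = 0.290). Without replicate 1 the ratio of Psmb10 to Psmb7 was -0.31, lower at 8 of 8 time points, and passed (permutation adjusted p = 0.0487), and without replicate 3 it was 0.025. A p above the threshold does not show that the ratios were equal.

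The ratio of Psmb10 to Psmb7 changed in opposite directions in the kidney and the heart. In the kidney it had a median of 0.120 (0.0909 to 0.190) in normoxia and 0.141 (0.113 to 0.304) after IH, and was higher at 7 of 8 time points. The log2 difference was 0.32 (permutation adjusted p = 0.012), and 0.16 without replicate 2 (permutation adjusted p = 0.196). In the heart the median was 0.538 (0.407 to 0.941) in normoxia and 0.458 (0.358 to 0.628) after IH, lower at 6 of 8 time points, with a log2 difference of -0.23 (permutation adjusted p = 0.028). Without the 2 libraries with high leukocyte markers it was -0.19 (permutation adjusted p = 0.051), and it did not pass when any of the 3 replicates was left out (-0.27 to -0.20). The ratio of Psmb8 to Psmb5 in the kidney was 0.23 lower on the log2 scale (permutation adjusted p = 0.066), and changed by -0.36 without replicate 2 (permutation adjusted p = 0.0124).

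**Figure D5:**
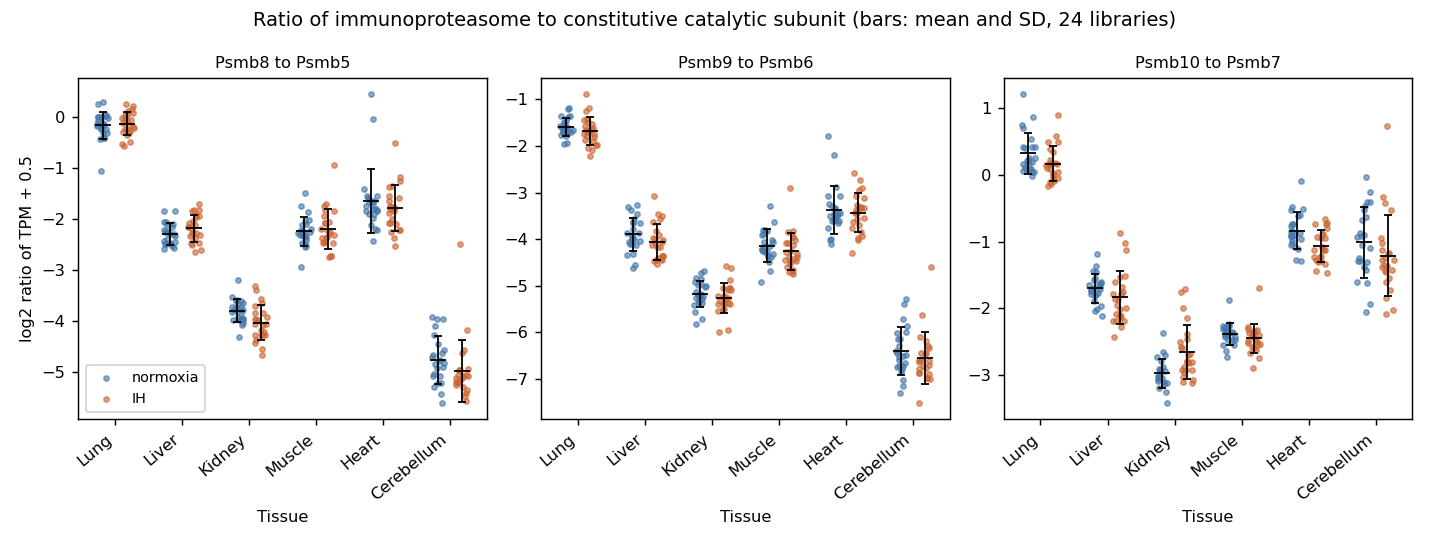
Log2 ratio of TPM + 0.5 of each immunoproteasome subunit to its constitutive counterpart by tissue, in normoxia and after IH. Points are libraries, and bars give the mean and SD of 24 libraries. The ratio of Psmb10 to Psmb7 was 0.32 higher after IH in the kidney and 0.23 lower in the heart, and in the lung Psmb8 to Psmb5 differed by 0.03.

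A 24-hour rhythm of the members was rare. A cosine fit with limma found 1 rhythmic member in the lung in normoxia (4.09% of all genes), Psme2b, with an amplitude of 0.30 on the log2 scale and a peak at 2.2 h (adjusted p = 0.012). After IH it found 1 in the lung (8.56% of genes), the lid subunit Psmd7, with an amplitude of 0.13 and a peak at 16.8 h (adjusted p = 0.022). In the kidney in normoxia 2 members were rhythmic (11.2% of genes), the ATPase Psmc3, with an amplitude of 0.16 and a peak at 15.5 h, and Psmd7, with an amplitude of 0.18 and a peak at 16.8 h. After IH 2 other members of the kidney were rhythmic (10% of genes), Psmd11, with an amplitude of 0.25 and a peak at 22.0 h, and Psmd5, with an amplitude of 0.13 and a peak at 15.8 h.

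Under limma 0 members were rhythmic in the liver (5.73% of genes in normoxia and 7.52% after IH), muscle (5.7% and 12%), heart (1.57% and 2.28%) and cerebellum (0.00672% and 0.0403%). At an unadjusted p under 0.05 the counts in normoxia and after IH were 2 and 3 in the liver, 1 and 3 in muscle, 0 and 0 in the heart and 6 and 5 in the cerebellum. Unadjusted counts were not made over all genes. The rank-based JTK test called 2 members in the liver in normoxia and 0 after IH (1794 and 504 of 11334 genes). It called 0 in muscle (611 and 878 of 12824 genes), heart (92 and 480 of 12779) and cerebellum (0 and 4 of 14892). Its counts were 2 and 1 in the lung (1293 and 618 of 15426) and 3 and 0 in the kidney (2144 and 764 of 12902). The difference in rhythm between the treatments passed for 0 members and 0% of genes in all 6 tissues with limma, and at an unadjusted p under 0.05 for 1 member in the lung, 1 in muscle, 5 in the cerebellum and 0 in the liver, kidney and heart.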

How the data were processed

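RNA-seq was measured in 6 tissues of mice after normoxia or IH. The deposited values are TPM per gene, which the authors made with Kallisto (mm10), summing transcripts to genes. No counts were used here, so the depth is unknown. The members, lists and tests were chosen with earlier results of these data known. Libraries were brought to 1 scale with median-of-ratios size factors, and log2(scaled TPM + 0.5) was tested with limma 3.58.1 in R 4.3.3 where a gene averaged 1 TPM or more, with treatment alone in the model, an intensity trend and Benjamini-Hochberg adjustment over all genes at 0.05. A 24-hour cosine and sine were fitted per treatment. Ratios were tested with 100000 permutations within time points. The tests were checked on simulated data. Python 3.11.15, numpy 2.4.6, scipy 1.17.1, pandas 2.3.3 and matplotlib 3.10.9 were used. Gene positions came from GENCODE on GRCm38, and promoters from RefSeq.

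Members named are the catalytic subunits, activators and Psmf1 in each tissue, the 3 largest rises and falls per tissue at a mean of at least 5 TPM, the 3 most rhythmic members per group and the 3 members furthest from other tissues in either direction. Others, such as Psmb2, Psma1 and Psmd13, were chosen after their values were seen. Alternatives were TPM as deposited, other pseudocounts and filters, time points as a term, the number of genes detected as a term, the replicate number as a block, JTK in place of the cosine, and leaving out each replicate or a library that stands apart. Leaving out all libraries with a median correlation under 0.96 was chosen after seeing the data. Same-numbered libraries deviated together (r over 0.1) in 5 to 16 of 24 pairs per tissue, so the numbers were not taken as pairs.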

Additional observations from a re-analysis of the deposited data

Results flagged for a closer look

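The change after IH differed between the lung and each other tissue by a limma interaction test for 39 members against the liver, 41 against the kidney, 42 against muscle, 36 against the cerebellum and 41 against the heart, which are counts of either direction and share the lung libraries. Of all genes, 56.2%, 64.4%, 58.9%, 53.4% and 67% differed in the same order. On deposited TPM the members that differed numbered 7, 12, 26, 13 and 24, and the median difference of the members against the liver was then 0.012. Genes that differed numbered 5572 of 10795, 7114 of 12214, 5582 of 12348, 5624 of 13178 and 6318 of 12445.

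The 3 members with the largest falls in the lung were looked at singly, as the log2 change in the lung minus that in the other tissue. For Psmd2 it was -0.36 against the liver, -0.94 against the kidney, -0.58 against muscle, -1.13 against the cerebellum and -0.74 against the heart. For Psmb10 it was -0.55, -0.99, -0.59, -0.80 and -0.44 in the same order. For Psmb3 it was -0.70, -0.81, -0.62, -0.58 and -0.70. Each of these 15 differences passed the limma adjusted p of 0.05.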

How the results depend on the processing

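The files hold no counts, so the error that depth adds to low members cannot be given. The fall of the lung members relative to all genes kept its direction under every alternative run (-0.49 to -0.26 on the log2 scale), but its size and the number of calls depended on scaling. Of the other results for single genes that were followed, directions reversed in 9 cases. In the lung these were Psme2 (0.0018) and Psme3 (0.050) with TPM as deposited and Psme3 (0.043) and Psmf1 (0.13) with the term for genes detected. In the heart they were Psmb6 (0.075), Psmb10 (0.10), Psme4 (-0.13), Psma3 (0.12) and Psma5 (0.094) with that term. The number of genes detected did not overlap between the treatments in the heart, so that term and the treatment can hardly be told apart there. Over all 43 lung members, 9 had a positive change with TPM as deposited, against 2 when scaled. The cause was not tested.

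Members changed after IH past 1.5-fold in the lung numbered 5, and 0 with TPM as deposited, 3 without the library of low correlation and 3 to 15 when replicates were left out. Genes lower past 1.5-fold numbered 677, 58, 496 and 383 to 1472 in the same order. Leaving out replicates gave 0 to 12 members changed in the liver (0 to 2 past 1.5-fold), 2 to 6 in the kidney, 1 to 22 in muscle, 5 to 11 in the heart and 0 to 12 in the cerebellum (0 to 3 past 1.5-fold). Genes changed then numbered 110 to 4637 in the liver, 2004 to 2531 in the kidney and 338 to 1532 in muscle. They numbered 3072 to 5687 in the heart and 48 to 5289 in the cerebellum. TPM as deposited gave 4 in muscle and 3 in the cerebellum, the term for genes detected gave 5 in the kidney and 1 in the heart, and without the cerebellar library that stands apart 1 member passed 1.5-fold. Genes that passed in these settings numbered 1946, 936, 3107 and 257, and 776 passed 1.5-fold without that library.

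With the tissues compared in normoxia, TPM as deposited gave 7 members higher and 1 lower in the lung and 0 and 6 in the liver. It gave 2 and 4 in muscle, 0 and 26 in the heart and 30 and 5 in the cerebellum. Of 15492 genes, 8581 were then higher and 2458 lower in the lung, and 1837 and 9618 in the liver. These numbers were 2649 and 5087 in muscle, 1544 and 7657 in the heart and 6692 and 3779 in the cerebellum. Muscle had 1 to 2 lower when replicates were left out. The lung differed from the liver, kidney, muscle, heart and cerebellum in 7, 12, 26, 24 and 13 members with TPM as deposited, and from the cerebellum in 23 with the term for genes detected. Genes that differed numbered 5572, 7114, 5582, 6318 and 5624 as deposited, and 3536 of 13178 with that term.

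Rhythmic members in normoxia and after IH numbered 2 and 4 in the lung, 1 and 2 in the liver and, after IH, 0 in the kidney with TPM as deposited. Rhythmic genes then numbered 336 and 1677 of 15426, 358 and 999 of 11334, and 366 of 12902. JTK gave 2 in the lung, 2 in the liver and 3 in the kidney in normoxia (1293, 1794 and 2144 genes), and 0 in the kidney after IH (764 genes). Without the libraries of low correlation the liver had 1 in normoxia and 2 after IH (1134 and 1415 of 11243 genes). Leaving out replicates gave 0 to 1 in the lung under both treatments, 0 to 1 in the liver under both, 0 to 3 in the kidney in normoxia and 0 to 1 after IH, 0 to 1 in muscle after IH and 0 to 2 in the cerebellum in normoxia. Genes rhythmic then numbered 164 to 346 and 409 to 1043 in the lung, and 304 to 368 and 408 to 779 in the liver. In the kidney they numbered 256 to 1591 and 345 to 1113, in muscle after IH 475 to 1129 and in the cerebellum in normoxia 0 to 581.

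Of the ratios, Psmb10 to Psmb7 in the heart lay between -0.27 and -0.20 with replicates left out, past the threshold under none of them by permutation, and was -0.19 without the libraries of low correlation. In the kidney it lay between 0.16 and 0.40, and without replicate 2, at 0.16, did not pass (permutation adjusted p = 0.196). By permutation 3 ratios that did not pass with all libraries passed when 1 replicate was left out, namely Psmb8 to Psmb5 in the kidney (-0.36 to -0.10) without replicate 2 (adjusted p = 0.0124), Psmb10 to Psmb7 in the lung (-0.31 to 0.025) without replicate 1 (adjusted p = 0.0487) and Psmb8 to Psmb5 in the cerebellum (-0.45 to -0.094) without replicate 3 (adjusted p = 0.0070).

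The replicate number was tried as a block, although the numbers were not shown to pair the libraries. Under the block 2 members changed in the kidney, and rhythmic members numbered 3 in normoxia and 2 after IH in the lung, 2 and 2 in the liver and 1 after IH in muscle. Of all genes, 2574 changed in the kidney. Rhythmic genes numbered 1365 and 2130 in the lung, 1320 and 1698 in the liver and 2460 after IH in muscle. The ratio of Psmb8 to Psmb5 in the kidney kept its value of -0.23 and passed the threshold (permutation adjusted p = 0.046). Other counts stayed within 1.5 times under the block.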
